A study of Mus musculus with 12 samples.

Results

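Genes of 7 families of amino acid transporters were followed in RNA sequencing of LSK cells, the lineage-negative, Sca1-positive and c-Kit-positive fraction of mouse bone marrow that holds the blood stem cells and early progenitors. The members are the mouse genes of the Slc1, Slc3, Slc6, Slc7, Slc36, Slc38 and Slc43 families listed at 0.5 TPM or more, a transcript abundance scaled by gene length and depth, in at least 4 of the 12 libraries. Of 61 family symbols among the 55487 genes listed, 27 met that rule. The series holds 4 libraries labelled Yy1-/- Smc3+/-, 4 labelled Yy1-/- and 4 of the wild-type control, Yy1+/+; the first 8 are called the mutant libraries where both are meant. Yin Yang 1, the product of Yy1, is a zinc finger factor that can activate or repress transcription, and Smc3 is part of the ring of cohesin, which holds DNA strands together. The Smc3 genotype was studied only on the Yy1-/- background, so no group shows it alone. The labels give the mice's genotype, tissue and sort, and no age, sex, Cre driver, treatment or number of animals per library. They do not say that libraries of a genotype came from separate animals, so the p-values measure only the spread between these libraries.

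As background, amino acids are polar and need carrier proteins to cross a membrane. The heavy chain Slc3a2 (CD98) escorts light chains such as Slc7a5 (LAT1) and Slc7a11 (xCT) to the cell surface, where they exchange 1 amino acid for another. Sodium-coupled carriers of the Slc1, Slc6 and Slc38 families concentrate glutamine, small neutral amino acids and taurine inside the cell, and Slc7a1 brings in arginine and lysine. Carriers of the lysosome release amino acids from digested protein and report them to the growth kinase mTORC1. In amino acid shortage the kinase GCN2 and the factor ATF4 switch on a set of transporter and enzyme genes through the amino acid response element, and the factors MITF, TFEB and MYC bind E-boxes. Blood stem cells are known to depend on the supply of branched-chain amino acids.

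Promoter windows were looked up in RefSeq (GRCm38.p6), from 250 bases before to 50 bases after each start site, for 19 of the 27 members, which have 30 windows. No window was held for Slc1a5, Slc38a1, Slc43a3, Slc6a15, Slc6a6, Slc7a3, Slc7a4 and Slc7a5. The amino acid response element TGATGNAA, sought on both strands, stood in windows of Slc1a4, Slc7a11 and Slc7a7, in 4 of 30 member windows against 3.97% of all 32851 windows. All 3 carry it at or near a start site and are shown, since they differ in response: Slc1a4 and Slc7a11 rose in libraries labelled Yy1-/- Smc3+/-, while Slc7a7 had no call and its libraries there all lay below Yy1+/+. Slc7a7 has overlapping windows for different start sites that hold the same element, so this site is counted more than once among the 4 windows. The window with the element at its start is printed. In these lines the strand shown is that of the gene, 100 bases before to 10 bases after the RefSeq start site are given, and the element is in capitals. On the minus strand, Slc1a4 spans chr11:20332704-20332813, Slc7a11 spans chr3:50443604-50443713 and Slc7a7 spans chr14:54417935-54418044.
Slc1a4: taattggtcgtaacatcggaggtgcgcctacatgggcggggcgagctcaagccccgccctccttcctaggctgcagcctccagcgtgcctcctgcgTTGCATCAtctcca
Slc7a11: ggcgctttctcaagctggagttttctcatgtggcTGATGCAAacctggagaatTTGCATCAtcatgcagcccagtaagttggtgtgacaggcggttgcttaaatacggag
Slc7a7: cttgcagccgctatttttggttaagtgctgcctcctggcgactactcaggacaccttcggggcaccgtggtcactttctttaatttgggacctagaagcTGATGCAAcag

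The E-box CACGTG was found in the windows of 4 members, in 4 of 30 member windows against 7.15% of all windows. These were Slc43a1, Slc38a5 and Slc38a7, which fell in libraries labelled Yy1-/- Smc3+/-, and Slc36a1, which had no call. They are shown in the same way, with the E-box (for Slc36a1 also the longer site named after the lines) in capitals, to let the sites be compared. Slc43a1 spans chr2:84840223-84840332 on the plus strand, at a start site that lies inside the gene as the GENCODE annotation draws it. Slc38a5 spans chrX:8271281-8271390 on the plus strand, Slc38a7 spans chr8:95853482-95853591 on the minus strand and Slc36a1 spans chr11:55204240-55204349 on the plus strand.
Slc43a1: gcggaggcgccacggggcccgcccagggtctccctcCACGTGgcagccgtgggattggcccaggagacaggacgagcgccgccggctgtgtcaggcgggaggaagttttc
Slc38a5: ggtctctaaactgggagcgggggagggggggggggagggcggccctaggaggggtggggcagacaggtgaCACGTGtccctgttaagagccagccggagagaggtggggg
Slc38a7: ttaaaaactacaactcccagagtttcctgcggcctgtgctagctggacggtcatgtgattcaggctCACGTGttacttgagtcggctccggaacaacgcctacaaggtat
Slc36a1: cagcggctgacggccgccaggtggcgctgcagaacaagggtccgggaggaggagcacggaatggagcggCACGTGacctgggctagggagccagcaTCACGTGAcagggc
The second E-box of Slc36a1 sits inside a CLEAR element, TCACGTGA, the site of lysosomal genes, which 0.974% of all windows held. The YY1 motif AANATGGCG was in 2.38% of all windows and in 0 of the 30 member windows, and the CCAAT box was in 10 of them against 37.4% of all windows. A match is a run of letters and not a measured binding site, and a window without one says nothing of the factor.

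Some libraries stood apart before any result is read. The summed count per library lay between 38671354 and 69086104. Yy1 averaged 1.74 ± 1.81 CPM (counts scaled to library size with TMM factors, SD, n = 4) in libraries labelled Yy1-/- Smc3+/-, 4.65 ± 5.43 CPM in Yy1-/- and 35.8 ± 3.63 CPM in Yy1+/+. Residual Yy1 reads were highest in Yy1-/- Smc3+/- replicate 3 (4.45 CPM) and in Yy1-/- replicates 3 and 4 (5.01 and 12.2 CPM). Smc3 mRNA was not lower in libraries labelled Yy1-/- Smc3+/-, at 301 ± 38.1 CPM against 255 ± 45.2 in Yy1-/- and 177 ± 25.2 in Yy1+/+, so that group is named by its label. Of the sort markers, Ly6a (Sca1) was read in every library and Kit fell in both comparisons with Yy1+/+, and the sum of Kit and Ly6a was 331 to 569 CPM, 355 to 480 CPM and 595 to 1132 CPM in the same order of groups. The sum of 10 stem cell markers was 64 to 109 CPM in Yy1-/- Smc3+/-, 45.8 to 99.9 CPM in Yy1-/- and 1012 to 1165 CPM in Yy1+/+, and all 10 fell in both comparisons with Yy1+/+. The sum of 12 cell division genes was 2985 to 3469 CPM, 2891 to 3518 CPM and 1244 to 2023 CPM, and all 12 rose in both. The part of either shift in the values below was not tested, and in bulk RNA fewer cells of a type and less RNA per cell cannot be told apart.

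A few of the 27 members made up much of their mRNA. Slc3a2, the CD98 heavy chain, ranked first in every genotype on the length-corrected TPM scale, and Slc1a5 (ASCT2, a glutamine exchanger) ranked second. Slc38a10, a family member of uncertain substrate, ranked next over all 12 libraries. Together, Slc3a2, Slc1a5 and Slc38a10 made 54.0% to 59.9% of the summed member TPM in libraries labelled Yy1-/- Smc3+/-. The same 3 members made 53.6% to 61.9% in Yy1-/- and 48.0% to 66.5% in Yy1+/+. The sum over all members was 767 to 882 TPM, 632 to 811 TPM and 818 to 972 TPM. The lowest Yy1+/+ library thus lay inside the range of the libraries labelled Yy1-/- Smc3+/- and above every Yy1-/- library. At the other end, Slc7a3 and Slc7a11 averaged under 1 TPM in each genotype.

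**Figure D1:**
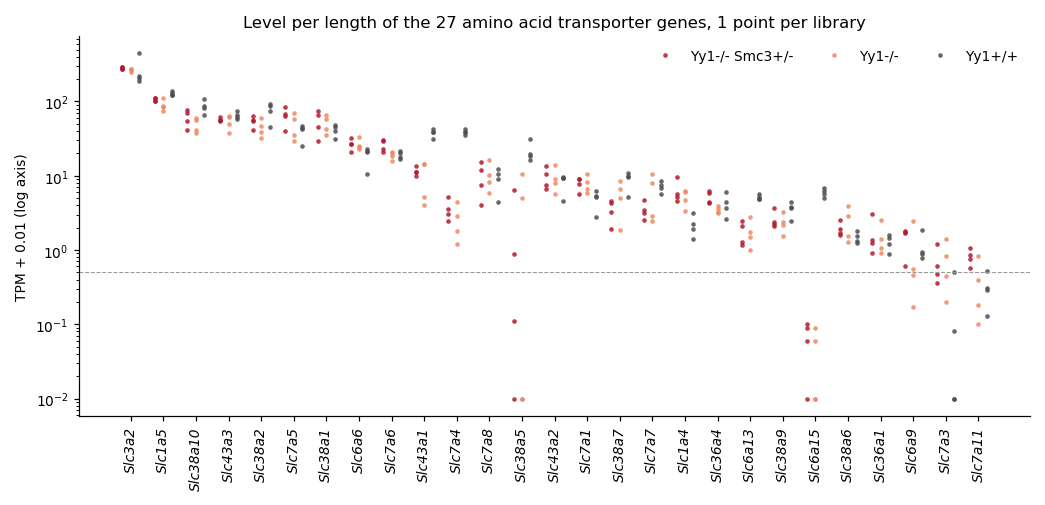
TPM + 0.01 on a log axis for the 27 members, ordered by their mean over the 12 libraries, with 1 point per library and the threshold of 0.5 TPM as a dashed line. Slc6a15 is the member whose Yy1+/+ points stand farthest from the others, and Slc3a2 has the highest points in all 3 genotypes.

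Of the 34 family symbols under the threshold, 13 were listed at 0 TPM in all 12 libraries and none exceeded 0.65 TPM. The rule took in all 3 Slc43 genes, 8 of 15 Slc7, 7 of 11 Slc38 and 4 of 19 Slc6 genes, but only 2 of 7 Slc1, 2 of 4 Slc36 and 1 of 2 Slc3 genes. Just inside the rule by the highest value that 4 libraries reached were Slc7a3 (0.6 TPM), Slc7a11 (0.75 TPM) and Slc36a1 (1.44 TPM). Just outside were Slc1a3 (0.22 TPM), Slc36a2 (0.2 TPM) and Slc6a12 (0.15 TPM). Slc6a15 met the rule through the 4 Yy1+/+ libraries alone. Slc7a11 met it only with the 4 libraries labelled Yy1-/- Smc3+/-, beside 1 Yy1-/- and 1 Yy1+/+ library, and Slc7a3 through 2 libraries of each mutant group. Since these 3 passed by the groups where they are high, their differences are not evidence about the set. All 27 passed the filter on low counts.

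Against Yy1+/+, members moved both ways. In libraries labelled Yy1-/- Smc3+/-, 6 members rose and 6 fell, which is 44.4% of 27 against 29.9% of all 16649 genes tested (edgeR quasi-likelihood F test, Benjamini-Hochberg adjusted p under 0.05). In Yy1-/-, 4 rose and 5 fell, which is 33.3% against 35.2% of all genes. The share in Yy1-/- was thus close to that of any gene. Without Slc6a15, Slc7a11 and Slc7a3, 5 of 24 rose and 5 fell in Yy1-/- Smc3+/- (41.7%), and 4 of 24 rose and 4 fell in Yy1-/- (33.3%). Slc1a4, Slc6a6 and Slc7a1 rose in both, and Slc43a1, Slc6a13, Slc6a15 and Slc7a4 fell in both, but the comparisons share their Yy1+/+ libraries. By direction, 22.2% of members rose and 22.2% fell in Yy1-/- Smc3+/-, where 13.1% and 16.7% of all genes did, and 14.8% rose and 18.5% fell in Yy1-/-, where 16.3% and 18.8% did. The median log2 fold change of the members was 0.30 in Yy1-/- Smc3+/- and 0.06 in Yy1-/-, where the median over all genes was 0.02 and 0.01. Leaving out Slc6a15, Slc7a11 and Slc7a3, the median was 0.25 and 0.05. In those 24 members 20.8% rose and 20.8% fell in Yy1-/- Smc3+/-, and 16.7% rose and 16.7% fell in Yy1-/-. Without overlap between the libraries of the groups were 6 members above and 7 below Yy1+/+ in Yy1-/- Smc3+/- (all genes 14.7% and 17.6%), and 4 above and 6 below in Yy1-/- (13.4% and 17.5%). Those counts include Slc6a15 in both groups and Slc7a11 in Yy1-/- Smc3+/-.

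**Figure D2:**
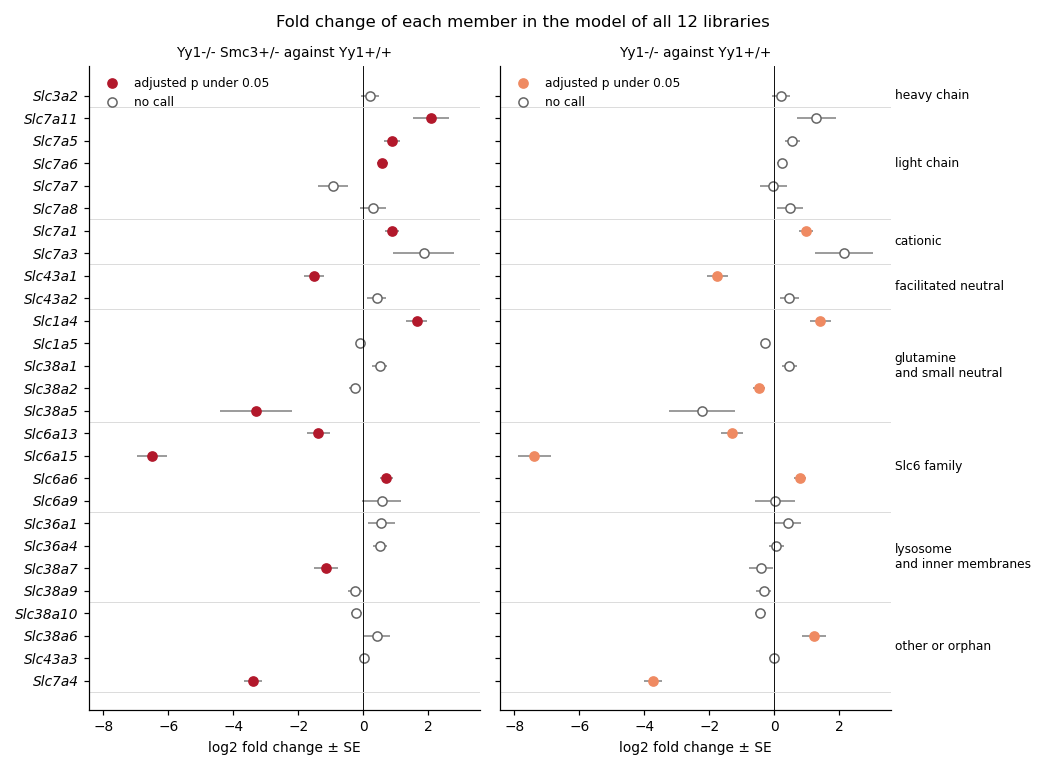
Log2 fold change against Yy1+/+ with its standard error (SE) for each member, grouped by role, in libraries labelled Yy1-/- Smc3+/- (left) and Yy1-/- (right). Filled points passed an edgeR adjusted p of 0.05. Slc6a15 and Slc7a4 lie farthest below 0 in both panels, and Slc7a5, Slc7a6 and Slc7a11 are filled on the left and open on the right.

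The heavy chain had no call. Slc3a2 had 342, 320, 332 and 316 CPM in the 4 libraries labelled Yy1-/- Smc3+/-, 373, 299, 346 and 291 CPM in Yy1-/-, and 218, 539, 190 and 188 CPM in Yy1+/+. All 8 mutant libraries stood above 3 of the 4 Yy1+/+ libraries, and Yy1+/+ replicate 2 stood above all others. The log2 fold change was 0.21 ± 0.28 (SE, edgeR adjusted p = 0.616) in Yy1-/- Smc3+/- and 0.21 ± 0.28 (edgeR adjusted p = 0.601) in Yy1-/-. Without Yy1+/+ replicate 2 the values were 0.72 (edgeR adjusted p = 0.000962) and 0.72 (edgeR adjusted p = 0.000853), so this 1 library decided the call. That library also had the highest sum of 6 eosinophil markers, 1994 CPM against 94.6 to 575 CPM in the other 3 Yy1+/+ libraries, 17.4 to 29.9 CPM in Yy1-/- Smc3+/- and 6.95 to 34.4 CPM in Yy1-/-. The part of those cells in the Slc3a2 value was not tested.

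Of the 5 light chains that pair with Slc3a2, 3 rose in libraries labelled Yy1-/- Smc3+/-, where 13.1% of all genes rose. Among the 3 is Slc7a11, which met the rule only with that group. No light chain passed the test in Yy1-/-, where 35.2% of all genes did. By an unadjusted edgeR p under 0.05 there were 2 higher light chains of 5 in Yy1-/-, and DESeq2 and limma also called 0. On log2(TPM + 0.5), limma called 0 of the 5 in Yy1-/- Smc3+/- as well (adjusted p = 0.117 for Slc7a5, 0.075 for Slc7a6 and 0.0544 for Slc7a11). Slc7a5, the LAT1 carrier of leucine and other large neutral amino acids, had 184, 207, 111 and 165 CPM in Yy1-/- Smc3+/-, 113, 161, 84.5 and 175 CPM in Yy1-/-, and 100, 69.7, 100 and 94.3 CPM in Yy1+/+. All libraries labelled Yy1-/- Smc3+/- lay above all Yy1+/+ libraries, and Yy1-/- replicate 3 did not. Slc7a5 rose in Yy1-/- Smc3+/- (log2 fold change 0.87 ± 0.24, edgeR adjusted p = 0.0146) and had 0.55 ± 0.24 (edgeR adjusted p = 0.0864) in Yy1-/-. The call was lost without Yy1-/- Smc3+/- replicate 2 (0.71, edgeR adjusted p = 0.0574), and without Yy1-/- replicate 3 Slc7a5 rose in Yy1-/- too (0.69, edgeR adjusted p = 0.0331).

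Slc7a6, the y+LAT2 exchanger of arginine or lysine against neutral amino acids, had 67, 78.8, 61.7 and 82.9 CPM in Yy1-/- Smc3+/-, 61.5, 47.7, 62.9 and 55.2 CPM in Yy1-/-, and 43.3, 60.7, 49.0 and 39.9 CPM in Yy1+/+. It rose by 0.59 ± 0.16 (edgeR adjusted p = 0.015) in libraries labelled Yy1-/- Smc3+/-, with no overlap, and had 0.24 ± 0.16 (edgeR adjusted p = 0.278) in Yy1-/-, with overlap. The rise lost its call without Yy1-/- Smc3+/- replicate 2 or 4 or Yy1+/+ replicate 4, at 0.50 to 0.52. Slc7a11, the xCT carrier that brings in cystine for glutathione, was scarce, at 1.84 to 2.61 CPM in Yy1-/- Smc3+/-, 0.381 to 2.63 CPM in Yy1-/- and 0.215 to 0.77 CPM in Yy1+/+. Its rise of 2.08 ± 0.55 (edgeR adjusted p = 0.0129) was in libraries labelled Yy1-/- Smc3+/-, the group that brought it past the rule, and it had 1.29 ± 0.60 (edgeR adjusted p = 0.11) in Yy1-/-.

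The remaining light chains, Slc7a7 (y+LAT1) and Slc7a8 (LAT2), had no call, and within Yy1-/- both were highest in the libraries richest in monocyte genes. Slc7a7 had 4.74, 6.60, 3.85 and 5.02 CPM in Yy1-/- Smc3+/-, 14, 16, 4.53 and 3.34 CPM in Yy1-/-, and 9.54, 13.3, 6.85 and 8.79 CPM in Yy1+/+. The sum of 12 monocyte, macrophage and dendritic cell markers was 8247 and 5518 CPM in Yy1-/- replicates 1 and 2, 985 to 1310 CPM in Yy1-/- replicates 3 and 4, 1424 to 2081 CPM in Yy1-/- Smc3+/- and 886 to 2153 CPM in Yy1+/+. Slc7a8 was also higher in that pair of Yy1-/- libraries, with 37.8 and 53.2 CPM in replicates 1 and 2 against 19.8 and 24 CPM in replicates 3 and 4. Without Yy1-/- replicates 1 and 2, Slc7a7 was lower in Yy1-/- than in Yy1+/+ (-1.32, edgeR adjusted p = 0.0196) and in Yy1-/- Smc3+/- than in Yy1+/+ (-0.98, edgeR adjusted p = 0.0166). Slc7a7 shares exon bases with Oxa1l on the other strand, which averaged 93.6 ± 6.67 CPM, 93.1 ± 8.91 CPM and 55.2 ± 5.60 CPM, and the library kit does not mark strand.

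Set per length, heavy chain mRNA exceeded light chain mRNA in every library. The ratio of Slc3a2 to the 5 light chains summed (TPM) was 2.18 to 3.82 in libraries labelled Yy1-/- Smc3+/-, 2.47 to 4.66 in Yy1-/- and 2.40 to 7.54 in Yy1+/+. Yy1+/+ replicate 2 gave the 7.54, and the other 3 Yy1+/+ libraries gave 2.40 to 2.63. Slc7a5 was the largest light chain everywhere, with 55.8% to 63.6% of light chain TPM in Yy1-/- Smc3+/-, 49.6% to 69.1% in Yy1-/- and 42.9% to 56.2% in Yy1+/+.

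**Figure D3:**
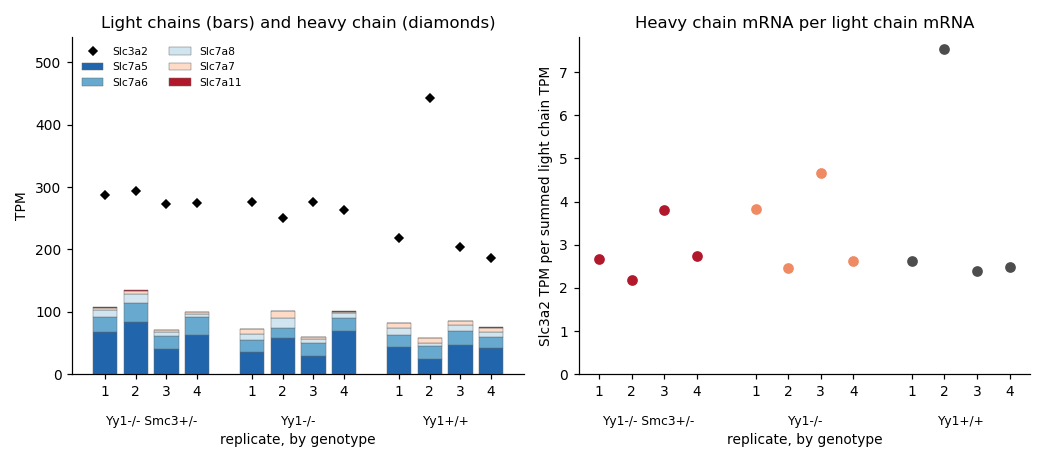
Left, TPM of the 5 light chains stacked as bars and of Slc3a2 as diamonds in each of 12 libraries; right, the ratio of Slc3a2 to the summed light chains. Slc3a2 lies above the light chains in all 12 libraries, and the ratio of 7.54 in Yy1+/+ replicate 2 is the highest.

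Of the cationic carriers, Slc7a1 rose in both groups. Slc7a1, the main carrier of arginine and lysine in most cells, had 32.5, 40.2, 53.0 and 50.4 CPM in Yy1-/- Smc3+/-, 39.3, 39.0, 50.3 and 57.6 CPM in Yy1-/-, and 29.6, 16.5, 23.5 and 25.2 CPM in Yy1+/+. All 8 mutant libraries stood above all 4 Yy1+/+ libraries. The log2 fold change was 0.90 ± 0.22 (edgeR adjusted p = 0.00779) in Yy1-/- Smc3+/- and 0.98 ± 0.22 (edgeR adjusted p = 0.0039) in Yy1-/-. Without the 3 libraries with residual Yy1 reads the value in Yy1-/- was 0.69 (edgeR adjusted p = 0.0643). Slc7a3, a related carrier known from the nervous system, had at most 2.80 CPM in any library and no call. Its log2 fold changes of 1.85 and 2.14 had standard errors of 0.94 and 0.90, and without Yy1+/+ replicate 2 they passed the test at 5.10 (edgeR adjusted p = 0.0219) and 5.39 (edgeR adjusted p = 0.0107), as the remaining Yy1+/+ libraries held 0, 0.0861 and 0 CPM. In Yy1-/- it also passed without Yy1-/- replicate 4 (2.44, edgeR adjusted p = 0.0483) and without the 3 libraries with residual Yy1 reads (2.78, edgeR adjusted p = 0.0475). On log2(TPM + 0.1), limma called it in Yy1-/- Smc3+/- (1.96, adjusted p = 0.0393) and in Yy1-/- (1.94, adjusted p = 0.0355). Slc7a3 met the rule through mutant libraries alone, so these passes lend no weight to a rise.

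Slc7a4 resembles the cationic carriers in sequence, but its own substrate is uncertain (GRCm38 chromosome 16, 17572018 to 17583214). Only Slc6a15 fell further among the called members. It had 4.39, 5.82, 8.61 and 5.79 CPM in libraries labelled Yy1-/- Smc3+/-, 3.05, 3.55, 5.61 and 7.26 CPM in Yy1-/-, and 59.2, 76.7, 54.3 and 67.7 CPM in Yy1+/+. The lowest Yy1+/+ library was several times the highest of the others. Slc7a4 fell, its mean being 9.55% of that of Yy1+/+ libraries in Yy1-/- Smc3+/- (-3.39 ± 0.28, edgeR adjusted p = 5.94e-06) and 7.55% in Yy1-/- (-3.73 ± 0.28, edgeR adjusted p = 3.51e-06). On the length-corrected scale it ranked 16th and 19th of the members in those groups and 8th in Yy1+/+. P2rx6, which shares exon bases with it on the other strand, was at 0 in all 8 mutant libraries and at 1.09 to 3.77 CPM in Yy1+/+, far below Slc7a4.

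Facilitated carriers of the Slc43 family let large neutral amino acids pass without sodium. Slc43a1 (LAT3), known for its part in leucine supply to maturing red cells, had 27, 18.3, 23.3 and 22.4 CPM in Yy1-/- Smc3+/-, 9.56, 10.8, 30.1 and 27 CPM in Yy1-/-, and 70.4, 65.3, 60.3 and 65.1 CPM in Yy1+/+. Yy1+/+ libraries lay close together and above all the others. Slc43a1 fell, with 34.9% of the wild-type mean left in Yy1-/- Smc3+/- (-1.52 ± 0.31, edgeR adjusted p = 0.00295) and 29.7% in Yy1-/- (-1.75 ± 0.32, edgeR adjusted p = 0.00108). The Yy1-/- libraries split, with replicates 3 and 4, which held residual Yy1 reads, above replicates 1 and 2. Replicates 1 and 2 were also the richest in monocyte genes, so residual Yy1 and monocyte RNA cannot be told apart within Yy1-/-. In Yy1-/- Smc3+/-, replicate 3, which held residual Yy1 reads too, lay within the range of the others. Without the 3 libraries with residual Yy1 the log2 fold change in Yy1-/- was -2.71 (edgeR adjusted p = 4.48e-05), and with Yy1-/- replicates 3 and 4 alone it was -1.23 (edgeR adjusted p = 0.00117). Slc43a2 (LAT4) had no call, at 52.6 ± 15 CPM in Yy1-/- Smc3+/-, 54.5 ± 21 in Yy1-/- and 39.6 ± 9 in Yy1+/+ (SD, n = 4).

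Slc43a3, a family member that carries purine bases rather than amino acids, lies 73.0 kb from Slc43a1 on chromosome 2 (84838850 to 84863594 for Slc43a1 and 84936579 to 84958509 for Slc43a3, GRCm38). It had 105, 109, 113 and 105 CPM in Yy1-/- Smc3+/-, 82.7, 98.3, 126 and 115 CPM in Yy1-/-, and 103, 115, 113 and 97.7 CPM in Yy1+/+. The groups overlapped, and its log2 fold change of 0.01 (95% interval -0.28 to 0.30) in Yy1-/- Smc3+/- and -0.02 (-0.31 to 0.27) in Yy1-/- leaves out a change of the size seen in its neighbour. Similar neighbours were Slc38a1 and Slc38a2, 44.5 kb apart on chromosome 15, and Slc7a7 and Slc7a8, 304 kb apart on chromosome 14.

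Among carriers of glutamine and small neutral amino acids, Slc1a4 rose and Slc38a5 fell, while the most abundant ones had small differences. Slc1a4 (ASCT1), an exchanger of alanine, serine and cysteine, had 17.2, 26.9, 14.5 and 15.4 CPM in Yy1-/- Smc3+/-, 16.4, 19.4, 10.6 and 17.1 CPM in Yy1-/-, and 3.57, 9.85, 5.28 and 4.80 CPM in Yy1+/+. No library of the first 2 groups overlapped Yy1+/+, whose highest value came from replicate 2. Slc1a4 rose 3.14-fold in Yy1-/- Smc3+/- (ratio of means; log2 fold change 1.64 ± 0.33, edgeR adjusted p = 0.00238) and 2.70-fold in Yy1-/- (1.42 ± 0.33, edgeR adjusted p = 0.00476). The element in capitals above spans its start site.

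Slc1a5 had 210, 211, 214 and 223 CPM in Yy1-/- Smc3+/-, 180, 180, 192 and 214 CPM in Yy1-/-, and 222, 291, 200 and 211 CPM in Yy1+/+. The groups overlapped, and the log2 fold change was -0.11 ± 0.13 (edgeR adjusted p = 0.549) in Yy1-/- Smc3+/- and -0.27 ± 0.13 (edgeR adjusted p = 0.11) in Yy1-/-. Slc38a2 (SNAT2), a sodium-coupled carrier known as a target of ATF4, had 152, 215, 209 and 194 CPM in Yy1-/- Smc3+/-, 136, 175, 151 and 203 CPM in Yy1-/-, and 267, 171, 262 and 222 CPM in Yy1+/+. Its values overlapped between groups. It fell by 0.47 on the log2 scale in Yy1-/- (SE 0.17, edgeR adjusted p = 0.0492) and had -0.26 ± 0.17 (edgeR adjusted p = 0.284) in Yy1-/- Smc3+/-. That call was lost in 11 of 18 alternatives, among them without Yy1-/- replicate 1, 2 or 3 and without Yy1+/+ replicate 1, 3 or 4 (-0.50 to -0.40). Slc38a1 (SNAT1), its neighbour, had 202 ± 65 CPM, 197 ± 44 CPM and 143 ± 21 CPM (SD, n = 4) in the same order, with no call, although without Yy1-/- Smc3+/- replicate 1 it passed at 0.67 (edgeR adjusted p = 0.0317).

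Slc38a5 (SNAT5), a carrier of glutamine, serine and histidine on chromosome X, was nearly off in several libraries. It had 1.12, 0.117, 8.77 and 0 CPM in Yy1-/- Smc3+/-, 0, 0, 14.6 and 6.04 CPM in Yy1-/-, and 34.1, 21.9, 18.7 and 21.4 CPM in Yy1+/+. The values above 2 CPM in the first 2 groups came from the 3 libraries with residual Yy1, and even these lay below every Yy1+/+ library. It fell in libraries labelled Yy1-/- Smc3+/- (-3.31 ± 1.12, edgeR adjusted p = 0.0397), and in Yy1-/- its log2 fold change was -2.22 ± 1.02 (edgeR adjusted p = 0.107). Without the 3 libraries it was -5.83 (edgeR adjusted p = 0.000232) in Yy1-/- Smc3+/-, and both remaining Yy1-/- libraries were at 0. Leaving out Yy1-/- Smc3+/- replicate 1, 2 or 4 or Yy1+/+ replicate 1, 3 or 4 ended the call (edgeR adjusted p from 0.0527 to 0.101), as did DESeq2 (adjusted p = 0.251), and leaving out Yy1-/- replicate 3 made it a call in Yy1-/- (-3.64, edgeR adjusted p = 0.0316). On log2 TPM, limma called it in Yy1-/- with either pseudocount (-3.43, adjusted p = 0.0203, and -4.60, adjusted p = 0.0375).

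Markers of red cell precursors were also uneven among the mutant libraries. The sum of 12 erythroid genes was 497, 258, 520 and 125 CPM in Yy1-/- Smc3+/-, 116, 161, 945 and 484 CPM in Yy1-/-, and 2526, 2170, 1670 and 2047 CPM in Yy1+/+. Car1, the carbonic anhydrase of early red cell precursors, had 4.67, 0.257, 128 and 0 CPM in Yy1-/- Smc3+/-, 0, 0, 201 and 39.7 CPM in Yy1-/-, and 718, 249, 338 and 424 CPM in Yy1+/+. The mutant libraries at 0 for Slc38a5 were also at 0 for Car1, and the 3 with residual Yy1 had more of both. Other erythroid genes did not follow that order in Yy1-/- Smc3+/-, where Car2 had 273, 238, 235 and 118 CPM and the globin gene Hbb-bt had 38, 8.73, 17.6 and 4.3 CPM, so that replicate 1 was above replicate 3. The part of these markers in the values of Slc38a5 and Slc43a1 was not tested.

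**Figure D4:**
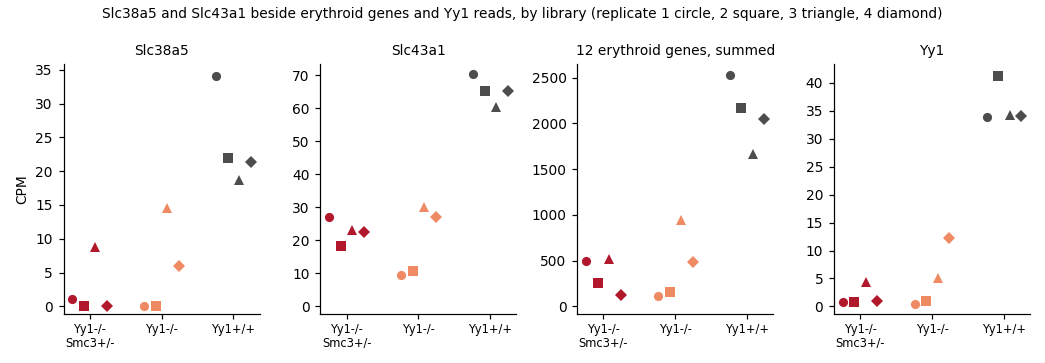
CPM of Slc38a5, Slc43a1, the sum of 12 erythroid genes and Yy1 in each library, with the libraries labelled Yy1-/- Smc3+/- left, Yy1-/- in the middle and Yy1+/+ right. Replicate 3 of Yy1-/- Smc3+/- and replicates 3 and 4 of Yy1-/- are the libraries with Slc38a5 above 2 CPM outside Yy1+/+, and Yy1-/- replicate 3 has the highest erythroid sum outside Yy1+/+, 945 CPM.

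Slc6 genes encode sodium- and chloride-coupled carriers. Slc6a15 (B0AT2), a carrier of branched-chain amino acids and proline (GRCm38 chromosome 10, 103367783 to 103419377), had 0.221, 0, 0.259 and 0.124 CPM in Yy1-/- Smc3+/-, 0, 0, 0.135 and 0.191 CPM in Yy1-/-, and 12.7, 14.1, 14.5 and 14.0 CPM in Yy1+/+. Those are 25 and 14 counts over 4 libraries against 2864 in Yy1+/+. The 8 mutant libraries, including those with residual Yy1 reads, were all near 0, and the Yy1+/+ libraries differed little. Slc6a15 fell, with 1.09% of the wild-type mean left in Yy1-/- Smc3+/- (-6.50 ± 0.46, edgeR adjusted p = 1.94e-08) and 0.589% in Yy1-/- (-7.39 ± 0.50, edgeR adjusted p = 8.82e-09). With Yy1-/- replicates 3 and 4 alone, which held residual Yy1 reads, it was -6.42 (edgeR adjusted p = 3.81e-06).

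Slc6a13 (GAT2), a carrier of GABA and taurine, had 1.90, 3.06, 4.11 and 1.99 CPM in Yy1-/- Smc3+/-, 2.82, 1.63, 4.67 and 2.63 CPM in Yy1-/-, and 6.50, 9.27, 6.07 and 6.81 CPM in Yy1+/+. Groups did not overlap, and Slc6a13 fell by 1.39 on the log2 scale in Yy1-/- Smc3+/- (SE 0.35, edgeR adjusted p = 0.00958) and by 1.3 in Yy1-/- (SE 0.34, edgeR adjusted p = 0.0106). Slc6a6 (TauT), the taurine carrier, moved the other way, with 102, 122, 164 and 128 CPM in Yy1-/- Smc3+/-, 132, 172, 126 and 118 CPM in Yy1-/-, and 87.7, 54.2, 88.2 and 86.1 CPM in Yy1+/+. It rose by 0.71 ± 0.19 (edgeR adjusted p = 0.0141) in Yy1-/- Smc3+/- and 0.79 ± 0.19 (edgeR adjusted p = 0.00638) in Yy1-/-, without overlap. Without the 3 libraries with residual Yy1 reads Slc6a6 had 0.53 (edgeR adjusted p = 0.0798) in Yy1-/- Smc3+/-, and without Yy1-/- replicates 1 and 2 it had 0.59 (edgeR adjusted p = 0.0814) in Yy1-/-. Slc6a9 (GlyT1), the glycine carrier, was low, at 1.53 to 4.12 CPM, 0.406 to 6.08 CPM and 1.62 to 3.55 CPM, and had no call.

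Lysosomal carriers and the arginine sensor had 1 call between them. Slc38a7 (SNAT7), which exports glutamine from lysosomes, had 4.83, 10.6, 8.48 and 10.5 CPM in Yy1-/- Smc3+/-, 14.6, 22.4, 4.98 and 15.5 CPM in Yy1-/-, and 20.5, 13.2, 21.8 and 20.9 CPM in Yy1+/+. Only the libraries labelled Yy1-/- Smc3+/- lay wholly below Yy1+/+. Slc38a7 fell there (-1.15 ± 0.38, edgeR adjusted p = 0.0355) and had -0.41 ± 0.37 (edgeR adjusted p = 0.414) in Yy1-/-. The call was lost without Yy1-/- Smc3+/- replicate 1, 3 or 4 or Yy1+/+ replicate 1, 3 or 4 (edgeR adjusted p from 0.0533 to 0.0938). Slc38a9, the sensor that reports lysosomal arginine to mTORC1, had 18.4 ± 5.4 CPM in Yy1-/- Smc3+/-, 17.4 ± 3.8 in Yy1-/- and 21.9 ± 2.9 in Yy1+/+ (SD, n = 4). Slc36a1 (PAT1) and Slc36a4 (PAT4), of the proton-assisted transporter family, had log2 fold changes of 0.55 ± 0.41 and 0.50 ± 0.22 in Yy1-/- Smc3+/- and 0.41 ± 0.41 and 0.06 ± 0.22 in Yy1-/-. Slc36a4 passed the test in Yy1-/- Smc3+/- only without Yy1+/+ replicate 3 (0.70, edgeR adjusted p = 0.0278). In Yy1-/-, 0 of these 4 genes had a call by edgeR, DESeq2 or limma, and 0 had an unadjusted edgeR p under 0.05.

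The 2 remaining Slc38 genes have no settled substrate. Slc38a6 (SNAT6) had 2.16, 2.34, 3.72 and 3.53 CPM in Yy1-/- Smc3+/-, 5.03, 8.91, 3.32 and 3.08 CPM in Yy1-/-, and 2.03, 2.26, 2.15 and 2.30 CPM in Yy1+/+. It rose in Yy1-/- (1.23 ± 0.37, edgeR adjusted p = 0.0202), where replicates 1 and 2, the libraries richest in monocyte genes, were highest, and had 0.42 ± 0.40 (edgeR adjusted p = 0.457) in Yy1-/- Smc3+/-. Without both of those libraries it was 0.52 (edgeR adjusted p = 0.297), without replicate 2 alone 0.80 (edgeR adjusted p = 0.075), and without Yy1+/+ replicate 1 it was 1.19 (edgeR adjusted p = 0.0515). Slc38a10 had 243, 243, 151 and 178 CPM in Yy1-/- Smc3+/-, 165, 203, 140 and 196 CPM in Yy1-/-, and 218, 220, 273 and 236 CPM in Yy1+/+. All Yy1-/- libraries lay below Yy1+/+, by -0.43 ± 0.17 on the log2 scale (edgeR adjusted p = 0.0688), against -0.22 ± 0.17 (edgeR adjusted p = 0.369) in Yy1-/- Smc3+/-.

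**Figure D5:**
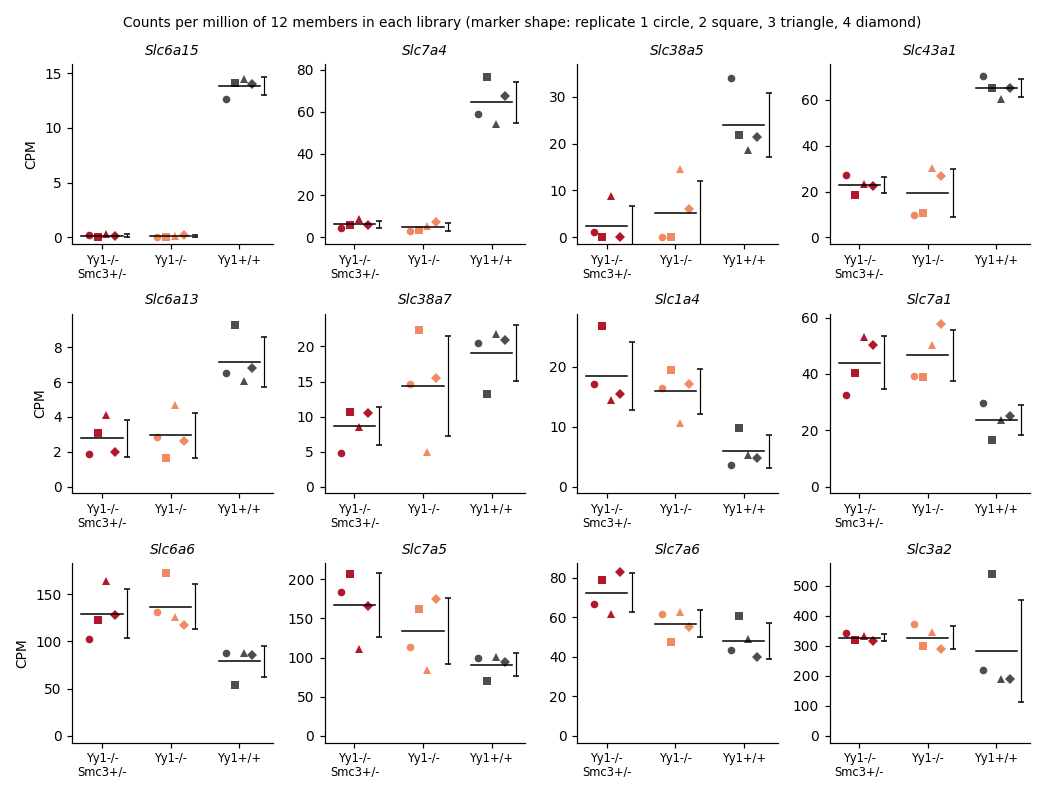
CPM of 12 members in each library, with the mean as a line and ± 1 SD as a bar (n = 4), libraries labelled Yy1-/- Smc3+/- left, Yy1-/- in the middle and Yy1+/+ right. Slc6a15 and Slc7a4 are low in all 8 mutant libraries, while Slc3a2 has a single high Yy1+/+ library at 539 CPM.

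The libraries labelled Yy1-/- Smc3+/- were set against those labelled Yy1-/- to ask whether the Smc3 genotype adds to the loss of Yy1, although their Smc3 mRNA was not lower. Of the 27 members, 0 passed the test by edgeR, DESeq2 or limma, and 2 had an unadjusted edgeR p under 0.05. No member's libraries were all above or all below those of Yy1-/-, where 1.13% and 0.883% of all genes were. Over all genes 6 were called, which is 0.036%, all higher, and DESeq2 called 55. The 2 members were Slc7a6 (0.35, 95% interval 0.01 to 0.70, edgeR adjusted p = 0.756) and Slc38a6 (-0.81, -1.61 to -0.02, edgeR adjusted p = 0.756). Members with a call against Yy1+/+ in one of the 2 groups alone were not shown to differ between them, with Slc7a5 at 0.32 (-0.19 to 0.83) and Slc7a11 at 0.79 (-0.26 to 1.84). Likewise Slc38a7 had -0.75 (-1.57 to 0.08) and Slc38a5 had -1.09 (-3.63 to 1.46). The last 4 intervals include 0 and, for Slc7a11, Slc38a5 and Slc38a7, a difference of more than 1 log2 unit.

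Without the 3 libraries with residual Yy1 reads, 311 genes were called between these 2 groups, and 2 members among them. Slc43a1 was higher in the libraries labelled Yy1-/- Smc3+/- than in Yy1-/- (1.13, edgeR adjusted p = 0.0333) and Slc7a7 was lower (-1.48, edgeR adjusted p = 0.0493). That comparison sets 3 libraries against Yy1-/- replicates 1 and 2, the pair with the most monocyte RNA, so the marker sums given above move with it, and their part was not tested.

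By the median, replicates varied least in Yy1+/+. Over the 24 members that reached a mean of 5 CPM in some genotype, the median coefficient of variation was 25.8% in Yy1-/- Smc3+/-, 27.6% in Yy1-/- and 19.7% in Yy1+/+. Slc38a5 varied most in the first 2 groups, at 168% and 134%, and Slc3a2 varied most in Yy1+/+, at 60.1%. Slc1a5 varied least in Yy1-/- Smc3+/- (2.74%).

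Genes that respond to or use the transported amino acids are given next by lists chosen with earlier results of these data in view. Some genes stand in more than 1 list, among them Psat1, Shmt2, Pycr1 and Asns, so the counts of the lists are not separate. Of 29 genes of the amino acid starvation response that were tested, 6 rose and 2 fell in Yy1-/- Smc3+/-, and 6 rose and 3 fell in Yy1-/-. These shares of 27.6% and 31.0% changed lie below the 29.9% and 35.2% of all genes. In both comparisons those that rose were Pycr1, Atf5, the mitochondrial folate enzyme Mthfd2, the serine and glycine enzymes Psat1 and Shmt2, and asparagine synthetase, Asns. Mthfd2 averaged 95.2 ± 3.36 CPM in Yy1-/- Smc3+/-, 106 ± 36.4 in Yy1-/- and 27.6 ± 5.74 in Yy1+/+ (SD, n = 4), with log2 fold changes of 1.78 (edgeR adjusted p = 8.32e-05) and 1.94 (edgeR adjusted p = 4.32e-05). Asns averaged 159 ± 16.8, 164 ± 37.7 and 81.5 ± 20.1 CPM, with 0.96 (edgeR adjusted p = 0.00239) and 1.00 (edgeR adjusted p = 0.00161). Those that fell were Vldlr and the stress factor Ddit3 in both comparisons and Ppp1r15a in Yy1-/-. The list did not move as 1 block, its median log2 fold change being 0.15 and 0.13, against 0.02 and 0.01 over all genes.

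Of 25 genes of branched-chain amino acid and arginine metabolism, 2 rose and 10 fell in Yy1-/- Smc3+/-, and 5 rose and 10 fell in Yy1-/-. That is 40.0% lower in each, where 16.7% and 18.8% of all genes were lower. Ivd, isovaleryl-CoA dehydrogenase of leucine breakdown, averaged 13.5 ± 5.59 CPM in Yy1-/- Smc3+/-, 17.4 ± 12.1 in Yy1-/- and 124 ± 4.92 in Yy1+/+ (SD, n = 4). Its log2 fold change was -3.2 (edgeR adjusted p = 0.000133) in Yy1-/- Smc3+/- and -2.83 (edgeR adjusted p = 0.000232) in Yy1-/-. Mccc1, Acadsb and Bckdhb, further enzymes of branched-chain amino acid breakdown but not all of leucine alone, also fell in both, with log2 fold changes of -1.16 to -0.87. Bcat1, the cytosolic aminotransferase, and the arginase Arg2 rose in both. The list's median log2 fold change was -0.20 in Yy1-/- Smc3+/- and -0.03 in Yy1-/-.

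Among 20 glutamine, glutamate and aspartate enzymes, 4 rose and 5 fell in Yy1-/- Smc3+/-, and 5 rose and 4 fell in Yy1-/-, with medians of 0.15 and 0.05 (log2). That is 45.0% changed in each, against 29.9% and 35.2% of all genes. Gmps, which uses glutamine to make GMP, averaged 239 ± 20.5, 249 ± 19.7 and 146 ± 5.52 CPM and rose. The CTP synthases moved in opposite directions. Ctps2 fell to 69.2 ± 7.25 and 66.2 ± 6.20 CPM, against 140 ± 26.7 CPM in Yy1+/+, and Ctps rose in both comparisons. Of 21 serine, glycine, proline and cysteine enzymes, 6 rose and 2 fell in each comparison, with 38.1% changed in each and a median of 0.28 in Yy1-/- Smc3+/- and 0.19 in Yy1-/-. Prodh, the proline oxidase, fell by 2.38 (edgeR adjusted p = 0.000863) in Yy1-/- Smc3+/- and by 2.17 (edgeR adjusted p = 0.00129) in Yy1-/-. Of 35 genes of amino acid sensing upstream of mTORC1, 6 rose and 4 fell in Yy1-/- Smc3+/-, and 9 rose and 6 fell in Yy1-/-, with 28.6% and 42.9% changed and a median of 0.01 and -0.27. Lamtor4, a subunit of the lysosomal Ragulator, averaged 37.0 ± 4.26, 41.6 ± 5.84 and 18.0 ± 1.81 CPM and rose in both comparisons. Kptn, Sec13 and Seh1l, subunits of the KICSTOR and GATOR2 complexes, also rose in both. Itfg2 and Mios, of the same complexes, fell in Yy1-/-, as did Tsc2. Sesn1, Sesn3 and Flcn fell in both comparisons, and Castor1 fell in Yy1-/- Smc3+/-. Of 10 other amino acid, peptide and cystine transporters, 1 rose and 2 fell in each (30.0% changed), with a median of -0.10 and 0.02. Slc15a3, a lysosomal peptide and histidine carrier of myeloid cells, rose by 2.67 (edgeR adjusted p = 0.00917) in Yy1-/- Smc3+/- and 3.43 (edgeR adjusted p = 0.00125) in Yy1-/-, and the peptide carrier Slc15a2 fell, with -2.97 (edgeR adjusted p = 0.00166) in Yy1-/- Smc3+/- and -3.31 (edgeR adjusted p = 0.000837) in Yy1-/-. Against Yy1-/-, the libraries labelled Yy1-/- Smc3+/- had 0 calls in all 6 lists by edgeR, DESeq2 and limma, with 2 genes at an unadjusted edgeR p under 0.05.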

How the data were processed

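RNA of sorted LSK cells was purified with a low-input column kit and made into full-length cDNA libraries with SMART-Seq v4, per the labels' protocols; that kit does not mark strand. STAR 2.5.2b, RSEM 1.3.0 and the build mm10 are named in the submitters' processing notes; the annotation release and settings are not given in the sources used here. The authors deposited 1 RSEM gene table per library, and per the file headers it holds expected counts (estimated reads per gene, not scaled) and TPM (scaled by length and depth). The deposited tables also hold FPKM and effective lengths, which were not used.

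Symbols came from a table of gene IDs, which matched 55094 of 55487 IDs with their version and 300 with another version, and coordinates came from GENCODE M21 (GRCm38, the same assembly as mm10). Members and gene lists were chosen with earlier results of these data known. Expected counts were rounded and fitted in edgeR 4.0.16 (R 4.3.3): filterByExpr with its count limit at 10 and total limit at 15, which kept 16649 genes, TMM factors, 1 quasi-likelihood model of 12 libraries with a term per genotype, Benjamini-Hochberg adjustment over all genes and a threshold of 0.05. Rose, fell and call refer to that threshold. CPM are counts scaled with TMM factors. SE is derived from the log2 fold change and its F value. Levels between genes were compared on TPM only. Counting intervals were not used, since 38671354 or more counts per library make the spread between libraries the larger error. The test was tested on simulated data.

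Genes named with full values are members with a call and a mean of at least 5 CPM in some genotype, the 3 members of highest TPM, and up to 4 called genes of smallest p per list; the values of other members and of Car1, and the names of other called list genes, were chosen after being seen. Alternatives were DESeq2 1.42.0, its size factors in edgeR, no filter and a minimum count of 50, limma 3.58.1 on log2(TPM + 0.5) and log2(TPM + 0.1), only the 2 genotypes compared, leaving out the 3 libraries with residual Yy1 reads, Yy1-/- replicates 1 and 2, or each library in turn, and, added after seeing the data, the earlier quasi-likelihood method of edgeR. The labels give no batch.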

Additional observations from a re-analysis of the deposited data

Results flagged for a closer look

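Of 81 groups of 4 libraries, 27 members in 3 genotypes, 7 held a library far from the other 3 by Dixon's criterion at the 95% level, which chance passes in about 1 group in 20. All 7 values came from Yy1-/- Smc3+/- replicate 3 or Yy1+/+ replicate 2. In Yy1-/- Smc3+/- replicate 3, Slc36a1 was high at 12.5 CPM against 3.75 to 5.04 CPM in the other 3 libraries of the group, Slc38a5 was high at 8.77 CPM against 0 to 1.12 CPM, and Slc6a9 was low at 1.53 CPM against 3.91 to 4.12 CPM. In Yy1+/+ replicate 2, Slc3a2 was high at 539 CPM against 188 to 218 CPM and Slc7a3 was high at 0.900 CPM against 0 to 0.0861 CPM. In the same library Slc6a6 was low at 54.2 CPM against 86.1 to 88.2 CPM, and Slc38a7 was low at 13.2 CPM against 20.5 to 21.8 CPM. Replicate 3 of Yy1-/- Smc3+/- is 1 of the libraries with residual Yy1 reads and had the highest sum of 11 neutrophil markers of all libraries, 17196 CPM against 1914 to 2649 CPM in the others of its group. Yy1+/+ replicate 2 was the deepest library, with 69086104 counts, and had the highest eosinophil sum. The part of these features in the 7 values was not tested.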

How the results depend on the processing

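Of the calls against Yy1+/+, 5 of 12 in Yy1-/- Smc3+/- (Slc1a4, Slc43a1, Slc6a13, Slc6a15 and Slc7a4) and 3 of 9 in Yy1-/- (Slc43a1, Slc6a15 and Slc7a4) held in all 18 alternatives, and no called member changed direction in any. Slc6a15 met the rule through the Yy1+/+ libraries alone, and Slc7a11, among the 12, only with those labelled Yy1-/- Smc3+/-. The calls of both are thus not evidence about the set. In Yy1-/-, Slc1a4 and Slc6a13 lost theirs only without Yy1-/- replicates 1 and 2 (1.18, edgeR adjusted p = 0.0505, and -1.0, edgeR adjusted p = 0.0818). On log2 TPM the median of all genes shifted to -0.13 and -0.15 (pseudocounts 0.5 and 0.1) in Yy1-/- Smc3+/- and to -0.21 and -0.26 in Yy1-/-. Members higher were then 1 and 2 in place of 6 in Yy1-/- Smc3+/- and 1 and 2 in place of 4 in Yy1-/-, and members lower were 8 and 8 in place of 5 in Yy1-/-. Slc6a6, Slc7a1, Slc7a5, Slc7a6, Slc7a11 and Slc38a6 lost their calls on that scale, and Slc1a5 (-0.53), Slc38a10 (-0.81 to -0.80) and Slc38a5 (-3.43 and -4.60) became lower in Yy1-/-. Without Yy1-/- replicates 1 and 2, 1 member was higher in Yy1-/-. Between Yy1-/- Smc3+/- and Yy1-/-, leaving out the 3 libraries with residual Yy1 gave 1 member higher, 1 lower and 311 genes, and DESeq2 gave 55 genes, in place of 0, 0 and 6; the cause was not tested. Leaving out 1 library at a time gave 4 to 8 members higher and 4 to 6 lower in Yy1-/- Smc3+/- (3835 to 4837 genes changed), 3 to 6 and 4 to 5 in Yy1-/- (4910 to 6027), and 0 and 0 between Yy1-/- Smc3+/- and Yy1-/- (5 to 7). A threshold of 1 TPM gave 25 members and one of 8 libraries gave 24. No paired analysis was possible because the labels give no replicate number or pair shared between genotypes; the numbers used here only name libraries, in order of accession. Members under 3 CPM rest on few counts, and their folds are the least certain.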
